A study of Mus musculus with 1824 samples.

Results

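Genes of secreted lipid and small-molecule carriers were followed in single cells of mouse embryos, 10 genes of the 55487 counted. They were found by matching the Ensembl identifiers to the symbols *Apoa1*, *Apoa2*, *Apoa4*, *Apob*, *Apoe*, *Apom*, *Ttr*, *Rbp4*, *Afp* and *Trf*, and all 10 had a row of counts. RNA was sequenced by Smart-seq2, a full-length method without molecular identifiers, from 1824 single cells sorted into 19 plates of 96 wells at embryonic day 7.5 (E7.5, 11 plates) and E8.5 (8 plates). The paper describes part of its cells as processed for RNA together with DNA methylation and chromatin accessibility, and the others for RNA alone. Which cells had which protocol is not given here. The embryos were chimaeras, in which embryonic stem cells lacking all 3 Tet enzymes and carrying an H2B-tdTomato label were injected into C57BL/6J blastocysts. The labels give the strain CD1 and the stage, and they state neither the genotype nor the sort gate of a cell, so each group below may mix knockout and host cells in unknown parts. In other single-cell data from such chimaeras, the paper reports that injected cells did not contribute to extraembryonic ectoderm. Only 4 plates carry an animal name, E7.5 embryos 1, 2, 4 and 5. The other E7.5 plates are called chimera plate 3 and lane plates 1 to 6 after their titles, and the methods describe pooling of embryos for chimaera work, so a plate without a name may hold several animals.

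Visceral endoderm covers the early embryo and later lines the yolk sac, where it takes up maternal proteins and lipids and secretes its own carriers before the liver forms. Apolipoproteins wrap and direct lipid particles. *Ttr* (transthyretin, for thyroid hormone), *Rbp4* (for retinol), *Afp* (alpha-fetoprotein, of the albumin family) and *Trf* (transferrin, for iron) encode soluble carriers of the same secretory programme. Definitive endoderm, which forms the gut, is marked at this stage by the transcription factors *Foxa2* and *Sox17*.

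The sequence just upstream of the start is shown for 4 genes whose levels are described below. *Afp* and *Apob* had a high ratio between cell classes. *Apoa2* had the highest ratio of the carriers between stages, and *Apoe* was read in most cells. Sequences are from RefSeq on GRCm38.p6, written 5′ to 3′ on the strand of the gene, and no annotated gene overlaps them. They cover chr5:90490464-90490713 (*Afp*, plus), chr12:7977427-7977647 (*Apob*, plus), chr1:171224804-171225053 (*Apoa2*, plus) and chr7:19699189-19699438 (*Apoe*, minus). Capitals mark matches to 5 short motifs searched on both strands: CAAAGNNCA for HNF4-type factors, TGTTTNC for FOXA, AGATAA for GATA, and the letters GTTAAT and also TATAAA.
Afp: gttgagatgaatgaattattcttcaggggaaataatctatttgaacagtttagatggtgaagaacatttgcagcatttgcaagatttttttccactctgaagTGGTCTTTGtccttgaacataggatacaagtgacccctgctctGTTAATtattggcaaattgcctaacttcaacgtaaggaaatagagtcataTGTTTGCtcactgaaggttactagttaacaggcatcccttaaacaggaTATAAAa
Apob: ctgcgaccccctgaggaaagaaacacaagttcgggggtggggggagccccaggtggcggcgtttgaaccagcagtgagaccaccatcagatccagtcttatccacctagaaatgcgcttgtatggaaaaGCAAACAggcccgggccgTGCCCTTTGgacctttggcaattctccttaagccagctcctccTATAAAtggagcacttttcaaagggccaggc
Apoa2: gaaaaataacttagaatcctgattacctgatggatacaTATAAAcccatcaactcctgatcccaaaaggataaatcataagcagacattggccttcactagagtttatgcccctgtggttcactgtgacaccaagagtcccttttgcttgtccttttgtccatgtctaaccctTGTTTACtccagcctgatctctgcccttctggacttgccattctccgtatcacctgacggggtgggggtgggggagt
Apoe: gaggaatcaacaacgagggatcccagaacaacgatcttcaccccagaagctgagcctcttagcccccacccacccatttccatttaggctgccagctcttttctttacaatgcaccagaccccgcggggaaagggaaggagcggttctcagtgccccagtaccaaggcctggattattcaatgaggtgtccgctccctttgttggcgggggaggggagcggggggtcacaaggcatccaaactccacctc
In up to 250 bases before the RefSeq start, 8 of the 10 genes had a window in the table. The FOXA letters were found in 6 of the 8 against 17.8% of all 32851 windows, the HNF4 letters in 3 against 5.49%, the TATAAA letters in 3 against 12.4%, the GTTAAT letters in 1 against 6.43% and the GATA letters in 0 against 9.99%. *Apoe* held no match. A match describes letters only and no binding was measured.

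Cells with at least 100000 reads were kept, 1649 of 1824. Levels are read counts divided by the total reads of the cell and given in parts per 10 to the power 6 (CPM), summed over the cells of a group before division unless single cells are named. Cells with at least 1000 CPM of *Ttr* are called Ttr-high. Cells with at least 10 CPM of both *Foxa2* and *Sox17* and less *Ttr* are called Foxa2/Sox17 cells. Median depth was 614948 reads in E7.5 and 1099636 in E8.5 Ttr-high cells, against 739571 and 555347 in the other cells. The number of kept cells whose values were identical to those of another was 0.

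The genes are spread over 8 chromosomes of GRCm38. *Apoa1* (chr9:46228580-46230466, plus strand) and *Apoa4* (chr9:46240696-46243459, plus strand) are neighbours, and *Trf* (chr9:103204001-103230444, minus strand) lies far from them. *Apoa2* is at chr1:171225054-171226379, *Afp* at chr5:90490737-90508907, *Apob* at chr12:7977648-8016835 and *Ttr* at chr18:20665280-20674321, all on the plus strand. *Apoe* (chr7:19696109-19699188), *Apom* (chr17:35128997-35132050) and *Rbp4* (chr19:38116629-38125281) are on the minus strand. Since the strand setting of the counting was not stated, reads of *Apoa4* and *Afp* cannot be told from those of opposite-strand genes that overlap them, Gm47528 and Gm10680 at *Apoa4* and Gm43449 at *Afp*. *Trf* shares its strand and position with Gm20425.

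Of 1649 cells, 44 were Ttr-high. At E7.5 they were 20 cells (2.09% of those kept, exact 95% binomial interval 1.28 to 3.21) and at E8.5 24 (3.46%, 2.23 to 5.11). These intervals treat cells as independent draws and do not cover differences between plates. Ttr-high cells were unevenly spread over plates. Embryo 4 held 11 of 91 cells (12.1%, 6.19 to 20.6) and embryo 5 held 6 of 88 (6.82%, 2.54 to 14.3). Embryos 1 and 2 held 0 of 92 and 0 of 94, with exact intervals reaching up to 3.93% and 3.85%. The remaining E7.5 cells of the class were 1 each on chimera plate 3, lane plate 5 and lane plate 6. At E8.5, plate 1 held 17 of 92, plate 6 held 3 of 92 and plate 7 held 4 of 88. Embryos 4 and 5 were also the embryos with many cells that had 10 CPM or more of both *Elf5* and *Tfap2c*, trophoblast transcription factors (50 and 35 cells, 0 in embryos 1 and 2).

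The threshold lay in a sparse range of *Ttr*. No *Ttr* read was present in 1480 cells, and in 12 the level lay between 100 and 1000 CPM. The cells just inside had 1040.9, 1144 and 1162 CPM, those just outside 715.8, 378.3 and 373.8 CPM, and the highest cell had 17255 CPM. Since *Ttr* made the class, its levels are a description.

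The label of the class was checked against 10 markers of visceral and yolk sac endoderm. Pooled over Ttr-high cells, 9 of the 10 exceeded 10 CPM at each stage, *Sox7* being the exception. On every plate other than E8.5 plate 7, each Ttr-high cell had 5 to 10 of the markers at 10 CPM or more. The 4 cells of plate 7 had 2 to 5. *Lrp2*, *Fga* and *Sox7* were at 0 in all 4 and *Amn* was at 0 in 3. The E8.5 ratios, levels per kilobase, shares of reads and list counts are therefore also given without plate 7. Cells picked by 5 of the 10 markers, with no use of the 10 carriers, were 28 at E7.5, including all 20 Ttr-high cells, and 22 at E8.5, including 21 of the 24. Of 6 markers of parietal endoderm, the other endoderm of the yolk sac, 5 exceeded 10 CPM in E7.5 Ttr-high cells, with a sum of 749.4 to 3671 CPM per cell against 0 to 4550.4 in the cells outside both classes, and *Thbd* had no read. In E8.5 Ttr-high cells the sum was 136.3 to 9551 CPM, with its highest value on plate 7, against 0 to 6513 CPM. The sum was highest in Foxa2/Sox17 cells, as described with them.

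All 9 carriers besides *Ttr* were higher in Ttr-high cells than in the other cells at each stage. The labels name only 4 animals and 2 of them held 3 or more cells of both classes, fewer than the 3 animals the planned test called for, so it was not run and no p-value is given. Log2 ratios use a pseudocount of 1 CPM, which understates the ratio of genes low in one group. Intervals describe the error of counting alone, because reads of 1 amplified molecule are counted many times. At E7.5 the median log2 ratio of the 9 genes was 7.98 (range 3.81 to 11.14), and all 9 reached 3, as did 3.25% of the 10148 genes with at least 10 CPM in either group. At E8.5 the median was 9.82 (4.16 to 11.34) and again all 9 reached 3, against 4.92% of 10110 genes. Without plate 7 the E8.5 median was 9.85 and all 9 reached 3 (5.47% of 10020 genes). Median log2 ratios over all those genes were -0.10 and -0.27. With the class taken from the 10 markers, the medians were 7.80 and 9.04, and *Ttr* itself had log2 ratios of 11.23 and 8.49. The ratios held within plates, with medians of 8.52 in embryo 4, 5.72 in embryo 5, 9.79 on plate 1, 8.88 on plate 6 and 7.01 on plate 7.

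**Figure D1:**
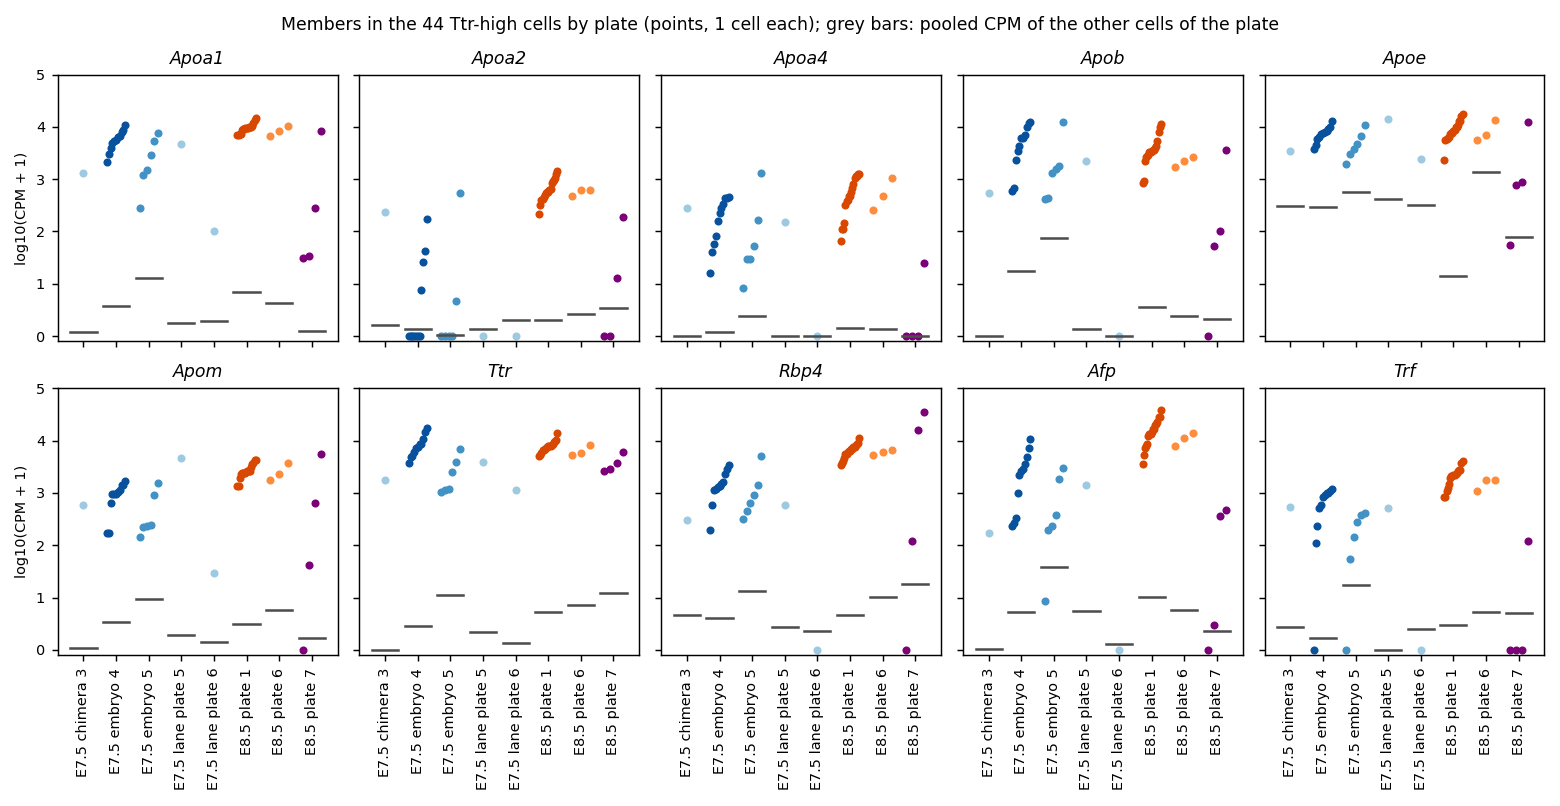
Level of each of the 10 genes in the 44 Ttr-high cells, on a log10(CPM + 1) axis, with plates along the x axis, 1 point per cell placed sideways in order of its value, and a grey bar for the pooled level in the other cells of that plate. *Apoa1* and *Ttr* points stand above the grey bars on all plates, the *Apoe* bars run from 13.2 CPM on E8.5 plate 1 to 1392 CPM on E8.5 plate 6, and most E7.5 points of *Apoa2* lie at 0.

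*Apoa1*, the main protein of high-density lipoprotein, was read in all 44 Ttr-high cells. At E7.5 the 11 cells of embryo 4 ranged from 2113 to 10752 CPM with a median of 5631, and the 6 of embryo 5 from 283.4 to 7664 with a median of 2224. Single cells had 1311 CPM on chimera plate 3, 4723 on lane plate 5 and 99.9 on lane plate 6. At E8.5 the 17 cells of plate 1 lay between 6843 and 14707 CPM (median 9391) and those of plate 6 at 6761, 8353 and 10259 CPM. Plate 7 was split, with 33.6, 30.2, 281.2 and 8257 CPM. Pooled, *Apoa1* had 4813 CPM (exact 95% Poisson interval 4777 to 4850) against 1.13 CPM in other E7.5 cells (1.06 to 1.20), a log2 ratio of 11.14. The E8.5 values were 8809 against 3.79 CPM, a log2 ratio of 10.85. In embryo 4 and on E8.5 plates 1, 6 and 7, each Ttr-high cell exceeded every other cell of its plate. In embryo 5 the groups overlapped, with a Ttr-high cell at 283.4 CPM and a Foxa2/Sox17 cell at 430.7 CPM. The share of all genes without overlap on these plates is not given here, so the separation describes *Apoa1* only.

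*Apob*, the scaffold protein of very-low-density and low-density lipoprotein, varied widely between E7.5 cells. Embryo 4 cells ran from 587.9 to 12485 CPM (median 6001) and embryo 5 cells from 414.6 to 12523 CPM (median 1438). Single cells had 543.6 and 2238 CPM on chimera plate 3 and lane plate 5, and lane plate 6 had none. On E8.5 plate 1 the range was 827.7 to 11533 CPM (median 3409), on plate 6 the cells had 2206, 1684 and 2605 CPM, and on plate 7 they had 102.9, 0, 52.4 and 3598 CPM. Pooled, *Apob* stood at 4675 CPM against 4.77 CPM at E7.5 and at 3595 against 1.35 CPM at E8.5, log2 ratios of 9.66 and 10.58. The groups overlapped in embryo 4 because 1 cell under the *Ttr* threshold had 5961 CPM.

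*Apoa2*, another high-density lipoprotein protein, was read in the fewest E7.5 Ttr-high cells. Only 7 of 20 Ttr-high cells had a read of it, 4 of 11 in embryo 4 (highest 175.5 CPM), 2 of 6 in embryo 5 (3.62 and 535.97 CPM) and the cell of chimera plate 3 (239.1 CPM). At E8.5 it was read in 22 of 24, with 211.2 to 1419 CPM on plate 1 (median 572.98), 630.5, 482.1 and 624.4 CPM on plate 6, and 0, 186.8, 0 and 11.8 CPM on plate 7. All 20 cells of plates 1 and 6 thus had 211.2 CPM or more, a level reached by 2 of the E7.5 cells. The log2 ratio to other cells was 5.29 at E7.5 and 8.32 at E8.5. The E7.5 ratio was 4.35 without chimera plate 3.

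*Apoa4*, a protein of intestinal and yolk sac lipid particles, and *Apom*, which carries sphingosine 1-phosphate on high-density lipoprotein, were read mostly in the class. *Apoa4* had 277.6 CPM against 0.0997 at E7.5 and 586.01 against 0.229 at E8.5. Its cells ranged from 0 to 1327 CPM at E7.5 and from 0 to 1281 CPM at E8.5. *Apom* had 988.7 CPM against 0.943 at E7.5 and 2531 against 1.79 at E8.5, with all 20 E7.5 cells above 0 (28.2 to 4645 CPM). The log2 ratios were 7.98 and 8.90 for *Apoa4* and 8.99 and 9.82 for *Apom*.

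*Apoe*, a ligand of the low-density lipoprotein receptor family, departed from the rest in that it was also read in most other cells. Ttr-high cells ranged from 1965 to 14342 CPM at E7.5 (median 6534). At E8.5 they ranged from 2352 to 17251 CPM on plates 1 and 6, and plate 7 had 53.4, 874.8, 778.97 and 12606 CPM. Other cells had a pooled level of 500.8 CPM at E7.5 and 454.8 CPM at E8.5, with a read in 96.2% and 80.6% of them. After thinning each cell to 100000 reads these shares were 91.1% and 74.4%. The log2 ratios were 3.81 and 4.16, the lowest of the 9 genes at each stage. They differed between plates. On E8.5 plate 1 the other cells had 13.2 CPM and the log2 ratio was 9.28, whereas on plate 6 they had 1392 CPM and it was 2.66. The other cells of plate 1 were rich in globin reads, with a median of 219526 CPM of haemoglobin genes against 186.5 CPM in its Ttr-high cells (7.54 to 2383), and the part this had in the ratio was not tested.

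*Rbp4*, the retinol carrier, was read in 19 of 20 E7.5 cells. Embryo 4 cells had 192.9 to 3429 CPM (median 1364) and embryo 5 cells 311.2 to 5158 CPM (median 770.7). At E8.5, plate 1 cells had 3445 to 11197 CPM (median 6395), plate 6 cells 6111, 5295 and 6660 CPM, and plate 7 cells 0, 120.97, 15728 and 35543 CPM. The plate 7 pair of 15728 and 35543 CPM exceeded all other cells of the series. Pooled values were 1308 against 4.34 CPM and 7052 against 5.87 CPM, log2 ratios of 7.94 and 10.003. *Rbp4* had a read in 15.2% of the other E7.5 cells, the highest share of the 9 carriers apart from *Apoe*.

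*Afp*, the fetal member of the albumin family, was read in 19 of 20 E7.5 and 23 of 24 E8.5 Ttr-high cells. Embryo 4 cells ran from 233.2 to 10543 CPM (median 2651), embryo 5 cells from 7.77 to 2968 CPM (median 302.9), and single cells had 168.7, 1422 and 0 CPM on chimera plate 3, lane plate 5 and lane plate 6. At E8.5 it had 3579 to 38009 CPM on plate 1 (median 14470) and 14201, 8023 and 11016 CPM on plate 6. The 4 cells of plate 7 had 1.98, 358.6, 476.7 and 0 CPM. Pooled values were 2545 against 2.62 CPM at E7.5 and 15345 against 4.93 CPM at E8.5, log2 ratios of 9.46 and 11.34.

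*Trf*, the iron carrier, was read in 17 of 20 E7.5 and 21 of 24 E8.5 Ttr-high cells. Embryo 4 cells had 0 to 1198 CPM (median 847.2) and embryo 5 cells 0 to 418.4 CPM (median 209.2). Plate 1 cells had 818.01 to 4111 CPM (median 2184), plate 6 cells 1792, 1105 and 1736 CPM, and plate 7 cells 0, 0, 0 and 117.96 CPM. The pooled values were 585.6 against 6.03 CPM at E7.5 and 2004 against 9.17 CPM at E8.5, with log2 ratios of 6.38 and 7.62.

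The concentration of reads can be put per gene. Ttr-high cells gave 1.63% of the E7.5 and 5.67% of the E8.5 reads. For *Apoa1* their share was 98.6% (E7.5) and 99.3% (E8.5), followed by 97.9% and 99.4% of *Apoa4*, 94.6% and 98.8% of *Apom*, 94.2% and 99.4% of *Apob*, and 94.2% and 99.5% of *Afp*. The shares were lower for *Rbp4* at E7.5 (83.3%), *Apoa2* (63.99%) and *Trf* (61.7%), which reached 98.6%, 97.5% and 92.9% at E8.5, and lowest for *Apoe*, 18.9% and 51.9%. Together the 10 genes took 2.85% of the reads of E7.5 and 5.61% of those of E8.5 Ttr-high cells, against 0.0523% and 0.0487% in the other cells. Left without *Ttr*, which made the class, the shares were 2.23% and 4.87% against 0.0521% and 0.0483%. Without plate 7 the E8.5 shares of reads were 51.7% for *Apoe*, 93.3% for *Trf* and 98.3% to 99.5% for the other 7 carriers besides *Ttr*, and the 10 genes took 6.01% of the reads of Ttr-high cells. The 17 cells of plate 1 spent 3.25% to 9.04% of their reads on them.

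Levels between genes were compared per kilobase of exon. At E7.5 the order in Ttr-high cells, in CPM per kilobase, was *Ttr* 5251, *Apoa1* 3894, *Apoe* 3288, *Apom* 976.04, *Rbp4* 974.2, *Afp* 755.8, *Apob* 335.5, *Trf* 176.4, *Apoa4* 152.9 and *Apoa2* 111.5. The cell ranges of each pair of neighbours in this order overlapped, as they did at E8.5. At E8.5 *Apoa1* led with 7127, before *Ttr* 6213, *Rbp4* 5251, *Afp* 4556, *Apoe* 3810, *Apom* 2498, *Apoa2* 1162, *Trf* 603.7, *Apoa4* 322.9 and *Apob* 257.99 CPM per kilobase. Without plate 7 *Afp* (5039 CPM per kilobase) came before *Rbp4* (5009), and the order of the other genes stayed as given. *Apoa2* stood last at E7.5 and above *Trf*, *Apoa4* and *Apob* at E8.5.

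**Figure D2:**
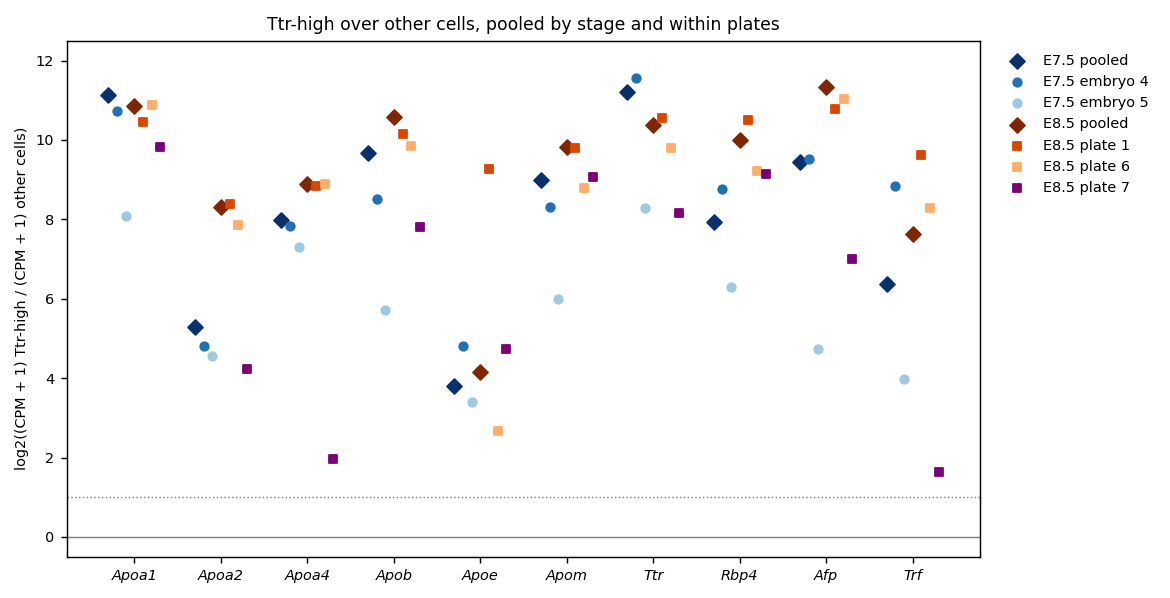
Log2 ratio of Ttr-high over other cells with a pseudocount of 1 CPM on the y axis for each gene on the x axis, pooled by stage (diamonds) and within each plate that held 3 or more Ttr-high cells (circles, E7.5 embryos, and squares, E8.5 plates). All points are above the dotted line at 1, the lowest are *Trf* and *Apoa4* on E8.5 plate 7 at 1.64 and 1.96, and *Apoe* is spread from 2.66 to 9.28.

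Foxa2/Sox17 cells were then set against Ttr-high cells. They were 48 at E7.5 (5.02%, 3.72 to 6.60) and 3 at E8.5 (0.433%). The interval again treats cells as independent draws and leaves out differences between plates. The 3 E8.5 cells had reads of *Apoe* (21.8 CPM) and *Ttr* (20.8 CPM) and none of the other 8 genes. Pooled over the 48 cells, all 7 definitive endoderm markers examined exceeded 10 CPM, but the cells did not all fit that label. On the plate of embryo 5, 2 of them summed to 51958 and 79205 CPM of the 6 parietal endoderm markers, with no read of *Cer1* or *Ttr*, and the other 46 to 68.9 to 2134 CPM. At least 5 of the 10 visceral endoderm markers were present in 6 cells, those 2 and 4 cells with *Ttr* above 100 CPM. Of the 3 E8.5 cells, 1 on plate 7 had a parietal sum of 19220 CPM. The class is therefore called by its 2 genes. Ttr-high cells also had *Foxa2*, pooled at 41.5 CPM in the earlier and 34.1 CPM in the later stage, and *Sox17*, pooled likewise at 97.4 and 38.1 CPM, so these genes do not separate the classes by presence.

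Pooled E7.5 Foxa2/Sox17 cells had 14.5 CPM of *Apoa1*, 86.96 of *Apob*, 47.9 of *Afp*, 21.5 of *Trf*, 12.54 of *Rbp4*, 11.9 of *Apom*, 1.66 of *Apoa4*, 0.885 of *Apoa2* and 748.003 of *Apoe*. The log2 ratio of Ttr-high over Foxa2/Sox17 cells had a median of 5.73 over the 9 genes (3.23 for *Apoe* to 8.28 for *Apoa1*). All 9 reached 1, as did 15% of 9795 genes, and all 9 reached 3, as did 2.57%. Without the 2 cells rich in parietal markers the median was 5.70.

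The Foxa2/Sox17 cells were not alike in these genes. Of the 10 on the plate of embryo 5, 5 had *Ttr* between 111.9 and 373.8 CPM, and in them *Apob* ranged from 891.7 to 2203 CPM, *Afp* from 160.1 to 1351, *Trf* from 61.03 to 513.8 and *Apoe* from 2899 to 5732 CPM. *Apoa2* had no read in any of the 5. The other 43 Foxa2/Sox17 cells had less than 100 CPM of *Ttr* and pooled levels of 12.96 CPM of *Apob*, all from 1 cell, 3.95 of *Afp*, 2.01 of *Apoa1*, 5.23 of *Trf* and 2.83 of *Rbp4*, with *Apoe* at 536.4 CPM. Against these 43 cells the median log2 ratio was 7.84. They were picked by low *Ttr*, which also made the Ttr-high class and went with most carriers over all cells, so this value is a description. Against Foxa2/Sox17 cells of any *Ttr* level, the median log2 ratio was 8.47 with embryo 5 left out. It was 8.79 within embryo 4, which had 3 Foxa2/Sox17 cells, and 3.07 within embryo 5. Against the E7.5 cells outside both classes, Foxa2/Sox17 cells had 7 of the 9 genes at a log2 ratio of 1 or more (5.41% of 9689 genes), 4 at 3 or more (0.516%) and none at -1 or less (7.9%). *Apoa2* was at 0.29 and *Apoe* at 0.61. Of the 7, *Apoa4* had 1.66 CPM, under the 10 CPM in either group that the genes of the shares had. With only the 43 cells under 100 CPM of *Ttr* the counts at 1, 3 and -1 were 3 (*Apob*, *Apom* and *Afp*, 5.03% of 9657 genes), 0 (0.404%) and 0 (8.11%), with a median log2 ratio of 0.33. The same 3 genes passed in the 41 of them with less than 10000 CPM of parietal markers. *Afp*, read in 2 of the 43 cells, and *Apom*, in 4 and at 3.80 CPM, lay under the 10 CPM of the genes in the shares. The shares are thus no like measure for these 2 genes.

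A search of all 1605 other cells for the 8 genes without *Ttr* and *Apoe* found few with much of them. Their sum was at 0 in 1059 cells and at 1000 CPM or more in 9. Of these 9, 5 were the Foxa2/Sox17 cells of embryo 5. A cell of embryo 4 with *Ttr* at 298.8 CPM had a sum of 8650 CPM, of which 5961 CPM was *Apob*. A cell of E8.5 plate 3 held 9 of the 10 endoderm markers together with *Pecam1* at 194.3 and *Cdh5* at 339.8 CPM, which are endothelial adhesion genes. A cell of lane plate 1 with *Cdh5* at 249.2 CPM had 1627 CPM of *Trf* and no read of the other 7. The last, on E8.5 plate 7, had *Ttr* at 715.8 CPM and *Rbp4* at 1250.0 CPM. In Ttr-high cells the same sum had a median of 26757 CPM and a lowest value of 128.1 CPM.

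Cells outside the class were sorted by pairs of marker genes, both at 10 CPM or more, leaving out cells that met 2 or more pairs. *Apoe* had its highest pooled level in cells with the endothelial pair *Pecam1* and *Cdh5*, at 1750.2 CPM in 97 E7.5 cells (1373 to 2341 over 4 plates) and 1191 CPM in 170 E8.5 cells (877.3 to 2395 over 4 plates). Next came E7.5 *Foxa2* and *Sox17* cells that met no other pair, at 948.3 CPM in 36 cells, with a plate range of 276.3 to 2406 CPM that overlapped the endothelial one. It was lowest with the erythroid pair *Hba-x* and *Klf1*, at 27.2 CPM in 52 E7.5 cells and 16.5 CPM at E8.5. In between lay *Hand1* and *Foxf1* cells of extraembryonic mesoderm (339.5 and 117.6 CPM), *Elf5* and *Tfap2c* cells (331.03 CPM at E7.5), *Pf4* and *Gp9* cells of the megakaryocyte lineage (387.5 CPM at E8.5), *T* and *Mesp1* cells of nascent mesoderm (207.4 CPM at E7.5) and *Pou5f1* and *Utf1* cells of the epiblast (167.3 CPM at E7.5). At each stage the plate range of the endothelial pair lay above those of the intermediate pairs that had 20 or more cells at that stage. The erythroid pair lay below all of these. Its levels were 9.86 to 28.4 CPM over 2 plates at E8.5 and 28.4 CPM on the 1 plate at E7.5. The plate ranges of the intermediate pairs overlapped one another at E7.5 apart from *Elf5* and *Tfap2c* cells (288.6 to 706.6 CPM) and *Pou5f1* and *Utf1* cells (86.2 to 220.1 CPM). *Trf* had 33.1 CPM in E7.5 *Pecam1* and *Cdh5* cells (0 to 192.3 over 4 plates) and 13.9 CPM in those of E8.5. In the pairs other than *Foxa2* and *Sox17*, the remaining 7 genes besides *Ttr* had at most 4.27 CPM at E7.5 and 10.7 CPM at E8.5.

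Reads of the 9 genes besides *Apoe* were also counted in cells with the erythroid pair, and their level differed between plates. Whether they are stray reads or expression was not tested. On E8.5 plate 1, which held 17 Ttr-high cells, 74 cells with the erythroid pair had 0.431 to 8.94 CPM of a given gene, and 20.3% to 56.8% of them had a read of it, at a median depth of 1065061 reads. On plate 2, which held no Ttr-high cell, 66 such cells had 0 to 0.414 CPM and a read in 0% to 4.55%, at 530542 reads. The 50 on E7.5 lane plate 1, with no Ttr-high cell, had 0 to 1.15 CPM, with reads in at most 5 cells. In all E8.5 cells outside the class, these erythroid cells included, 3.59% to 14.8% had a read of a given gene apart from *Apoe*, at a median depth of 555347. Plate 1 supplies part of these shares, with a read of *Apob* in 44% of its cells outside the class, against 8.07% over all plates. The pooled shares are thus no measure apart from plate 1. They lie below those of its erythroid cells and mostly above those on plate 2. No single level of erythroid cells applies to all plates, and expression of these genes outside the class was neither read from the shares nor set aside. Plate 3, also without a Ttr-high cell, had a read of *Afp* in 21.7% and of *Apoa1* in 20.5% of its cells, above the erythroid share of plate 2.

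**Figure D3:**
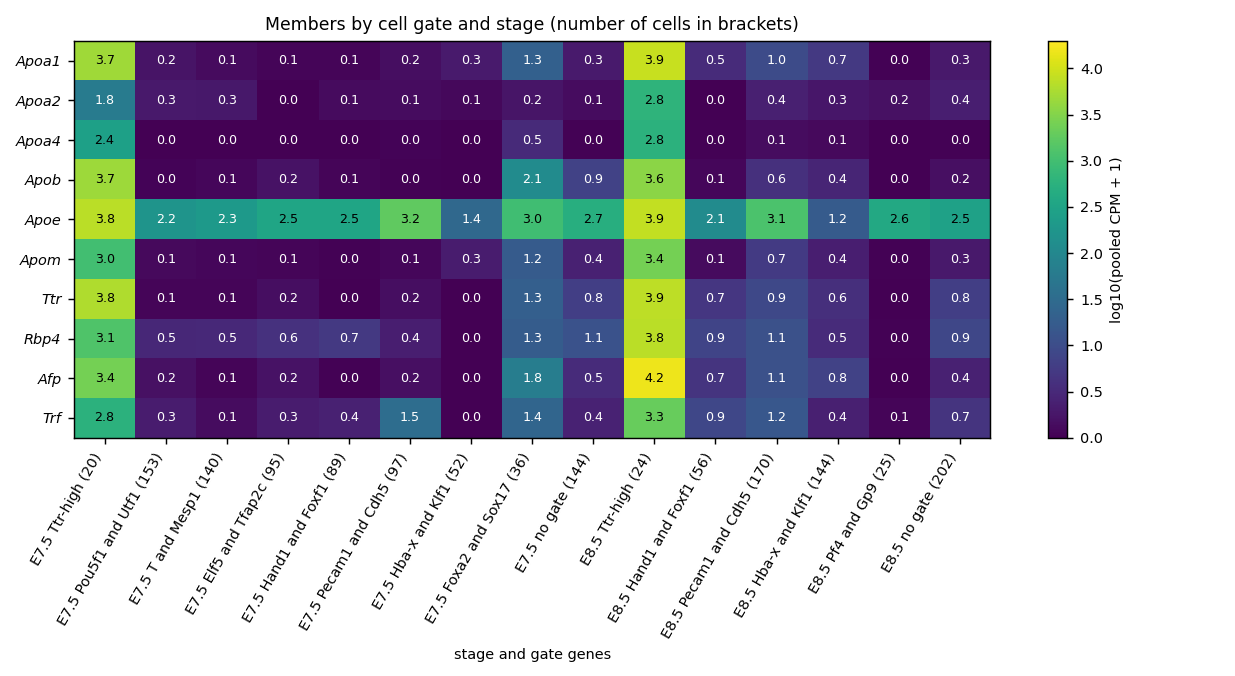
Pooled level of the 10 genes, as log10(CPM + 1) by colour and in figures, in Ttr-high cells, in cells meeting 1 pair of marker genes and in cells meeting none, by stage, with the number of cells in brackets and pairs under 20 cells left out. The 2 Ttr-high columns are bright for most rows and *Apoe* is the row with signal in all columns.

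Between stages, 6 of the 9 genes were at least 2 times higher in E8.5 than in E7.5 Ttr-high cells on the log2 scale with pseudocount, a log2 ratio of 1 or more that 12.8% of 9670 genes reached. *Apoa2* had the highest log2 ratio, 3.36, then *Afp* 2.59, *Rbp4* 2.43, *Trf* 1.77, *Apom* 1.35 and *Apoa4* 1.08. *Apoa1* was at 0.87, *Apoe* at 0.21 and *Apob* at -0.38, with *Ttr* at 0.24. The median of the 9 was 1.35, against -0.08 for all 9670 genes. Without plate 7 it was 1.45 and *Apoa1* reached 1.00, so that 7 of the 9 passed (13.1% of 9607 genes). Without plate 1, the main source of E8.5 cells, the median was 0.59, with *Apob* at -1.71, *Trf* at 0.59 and *Afp* at 1.35. Without embryo 4 it was 1.78 and *Afp* was at 4.45.

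The 2 named embryos with Ttr-high cells and E8.5 plates 1 and 6, whose Ttr-high cells held 7 to 10 endoderm markers, give 4 pairs. The pairs reuse 2 embryos and 2 plates, so they are not 4 separate observations. On plate 6, 2 of the Ttr-high cells also had *Pecam1* and *Cdh5*, at 55.6 and 69.3 CPM in 1 and at 48.8 CPM of each in the other. Whether these wells held joined cells was not tested. *Apoa2* was higher at E8.5 in all 4 (log2 ratio 4.004 to 4.81), as were *Afp* (1.62 to 4.09), *Rbp4* (1.79 to 2.72), *Trf* (1.14 to 3.09), *Apom* (1.28 to 2.17), *Apoa4* (0.79 to 1.30), *Apoa1* (0.36 to 1.53) and *Apoe* (0.12 to 0.52). *Apob* ranged from -1.50 to 0.10 and *Ttr* from -0.45 to 1.20, so their direction differed between pairs. The stages were on different plates throughout, so stage, plate and any difference of protocol between plates cannot be told apart.

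**Figure D4:**
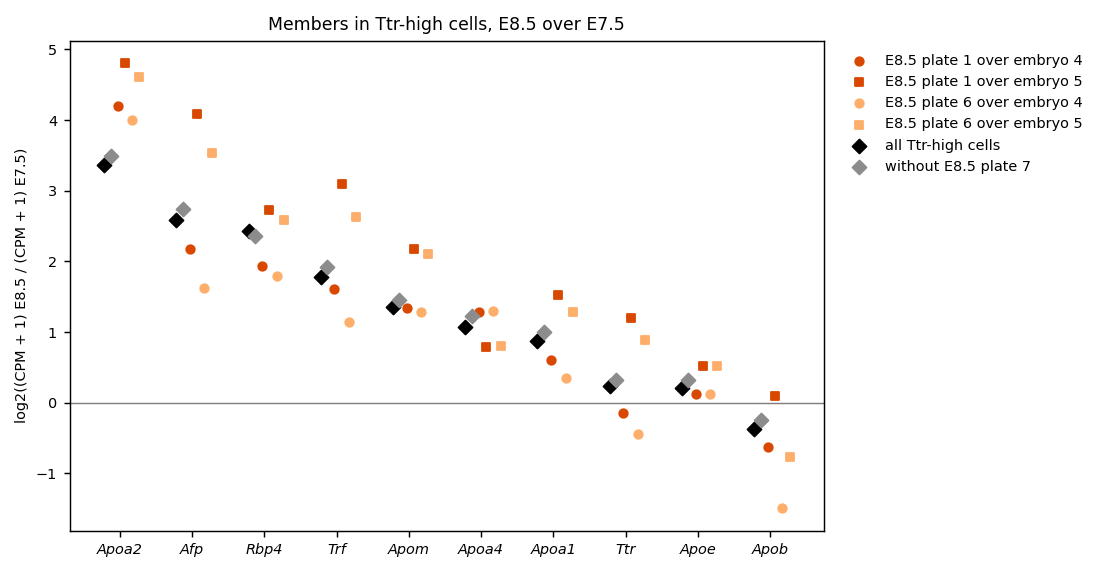
Log2 ratio of E8.5 over E7.5 Ttr-high cells with a pseudocount of 1 CPM, for each gene in order of its ratio, with all cells in black, without E8.5 plate 7 in grey, and the 4 pairs of an E8.5 plate and a named embryo in orange. The points of *Apoa2* lie highest, up to 4.81, and those of *Ttr* and *Apob* fall on both sides of the line at 0.

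The Ttr-high cells of E8.5 plate 7 differed from the 20 of plates 1 and 6. Pooled *Afp* was 291.7 against 16972 CPM, *Trf* 14.5 against 2219, *Apoa4* 2.90 against 649.03 and *Apoa2* 64.1 against 684.6 CPM, log2 ratios of -5.86, -7.16, -7.38 and -3.40, and for these 4 genes the cells of plate 7 all lay below those of the other plates, as for 1.42% of 9970 genes. In all, 8 of the 9 carriers besides *Ttr* were at a log2 ratio of -1 or less (23.5% of genes). *Rbp4* was at 10052 against 6728 CPM (log2 ratio 0.58), and *Ttr* at 3496 against 7787 CPM. The uptake genes *Cubn* and *Amn* were at 26.1 against 3212 and 15.9 against 2492 CPM. Of the 11 endoderm transcription factors, 6 were at a log2 ratio of 1 or more on plate 7 (31% of all genes) and 2 at -1 or less, among them *Hnf4a* (46.7 against 155.3 CPM). Among the 6, picked out after the values were seen, were *Foxa1* at 51.4 against 0.117 CPM, *Onecut1* at 55.7 against 0.117, *Cebpa* at 23.5 against 0.0391 and *Gata6* at 141.5 against 13.1. *Nepn*, picked out after the values were seen, had 2699 and 3031 CPM in the 2 cells with most *Rbp4* and no read in the other cells of the plate's class. These 4 cells are on 1 plate and no second plate repeats them.

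Within E7.5, embryo 4 and embryo 5 differed most in *Afp* (3922 against 1034.2 CPM, log2 ratio 1.92), *Trf* (1.49) and *Ttr* (1.34), and by -0.50 to 0.93 in the other 7 genes. A log2 ratio of 1 or more was reached by 2 of the 9 carriers besides *Ttr* and by 17.4% of 9739 genes, none of the 9 reached 3 (4.44%) and none was at -1 or less (14.9%). In a split chosen after the values were seen, Ttr-high cells of these embryos were divided by *Cer1*, a secreted Nodal antagonist of anterior visceral and early definitive endoderm. *Cer1* was at 1000 CPM or more in 7 cells, 3 of embryo 4 and 4 of embryo 5, and lower in 10, and it had no read in any of the 24 E8.5 cells. The 7 cells had 2332 CPM of *Apoa1* against 7311, 1039.1 of *Apob* against 8079.6, 567.7 of *Afp* against 4419, 258.9 of *Apom* against 1284 and 0.817 of *Apoa2* against 49.6, which rests on 3 reads. *Apoe* and *Trf* differed least, 4783 against 8925 and 438.1 against 711.5 CPM.

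Pooled levels of the 9 carriers besides *Ttr* were lower with high *Cer1* in both embryos, as for 24.5% of genes. For *Trf* this rested on little, a log2 ratio of -0.09 in embryo 4, where the cell medians were 847.2 CPM with high *Cer1* and 793.7 with low, and equal medians of 209.2 CPM in embryo 5. For *Apob* the log2 ratio of high over low *Cer1* was -2.45 in embryo 4 and -3.83 in embryo 5, and for *Apoa1* it was -1.19 and -2.13, with no overlap of cells in either. *Afp* stood at -4.09 in embryo 4 and -1.04 in embryo 5, where the low *Cer1* side had 2 cells. Over both embryos the cells did not overlap for *Apoa1* and *Apom*, 2 of the 9 carriers, whereas 0.0919% of 9797 genes were lower without overlap. A pooled log2 ratio of -1 or less was seen for 7 of the 9 and for 18.1% of genes. *Apoa1* was between 283.4 and 3865 CPM in the 7 cells and between 4878 and 10752 in the 10.

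**Figure D5:**
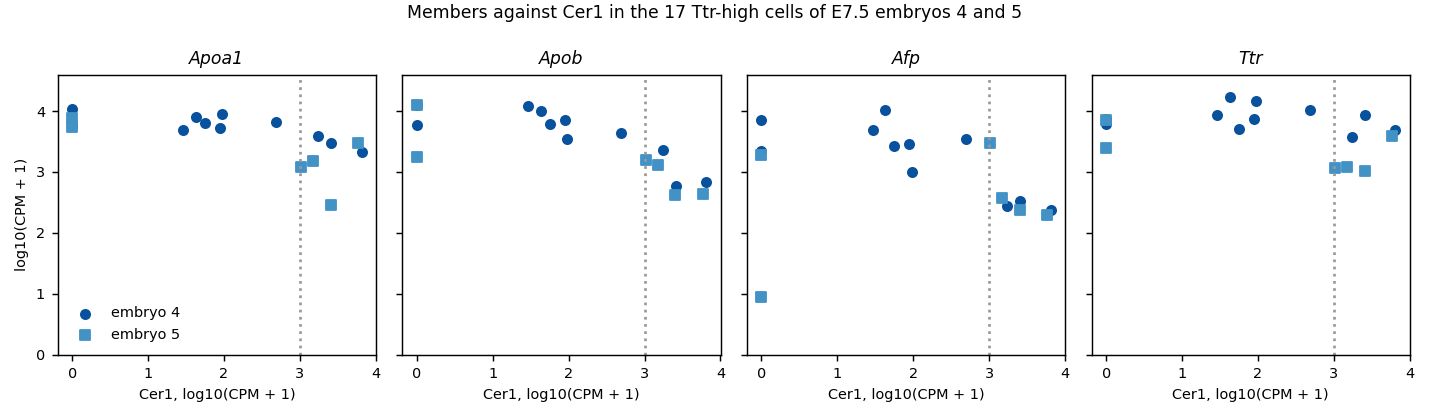
Level of *Apoa1*, *Apob*, *Afp* and *Ttr* against *Cer1* in the 17 Ttr-high cells of E7.5 embryos 4 (circles) and 5 (squares), both axes as log10(CPM + 1), with a dotted line at 1000 CPM of *Cer1*. The 7 cells at or right of the line have less *Apoa1* than the 10 on the left, and for *Afp* 1 cell of embryo 5 without *Cer1* lies lowest.

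Other genes of the same processes were taken from lists of 11 genes each. Among genes of lipoprotein assembly and further apolipoproteins, 7 had at least 10 CPM in either group at E7.5 and 6 of them had a log2 ratio of 1 or more over other cells (16.3% of all genes), and at E8.5 7 of 8 did (16.2%). *Mttp*, which loads lipid onto apolipoprotein B, had 854.02 CPM at E7.5 against 589.9 at E8.5, and *Dgat2*, of triglyceride synthesis, 125.2 and 443.6 CPM. *Apoc1* had 85.8 and 56.7 CPM and *Apoc3* 30.1 and 100.2 CPM. *Apoh* had no read in Ttr-high cells. Of 11 further secreted plasma proteins, 6 at E7.5 and 7 at E8.5 had at least 10 CPM in either group, and all of these reached 1. In both lists, genes under 10 CPM in other cells passed that floor only through Ttr-high cells, so these counts are descriptions. Over all 11 plasma protein genes the median log2 ratio was 4.27 at E7.5 and 5.23 at E8.5. *Spp2* was highest (168.4 and 763.9 CPM). The next were the fibrinogen chains *Fgb* (102.4 and 451.1), *Fgg* (96.3 and 426.01), followed at E8.5 by *Fga* (34.4 and 424.95). *Alb*, the albumin of later liver, had 0.0723 CPM at E7.5 and no read among 28325561 at E8.5, in cells with 15345 CPM of its relative *Afp*.

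Receptors and uptake proteins did not move as a group. At E7.5, 6 of 9 were higher by a log2 ratio of 1 or more (16.3% of all genes) and 3 lower (16.3%). At E8.5, 5 of 9 were higher (16.2%) and 3 lower (22.1%), and without plate 7 these were 6 (16.9%) and 3 (25.5%). *Dab2*, an endocytic adaptor, had 2914 CPM at E7.5 against 1894 at E8.5, and the partners *Cubn* and *Amn*, which form a receptor that binds apolipoprotein A-I among other ligands, had 1558 and 2901 CPM and 843.3 and 2251 CPM. *Tfrc*, the receptor of transferrin, was lower than in other cells, at 65.3 against 275.1 CPM at E7.5 and 67.8 against 244.4 at E8.5. *Vldlr*, a lipoprotein receptor, was at 6.51 against 51.01 CPM at E7.5. Of the transcription factors with at least 10 CPM in either group, 7 of 8 (16.3% of all genes) and 6 of 7 (16.2%) were higher. Here too a gene low in other cells passed that floor only through Ttr-high cells. Over all 11 the median log2 ratios were 2.23 and 2.64. *Gata4* was at 320.1 and 106.2 CPM and *Hnf4a* at 141.4 and 144.7 CPM.

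From E7.5 to E8.5 the lists differed. Of 8 plasma protein genes past 10 CPM, 7 were higher by a log2 ratio of 1 or more (12.8% of all genes) and *Hpx*, with 0 reads at E8.5, was at -4.35. For lipoprotein assembly 4 of 8 were higher and none lower. For receptors 4 were higher and 1 lower of 8. Of 8 transcription factors 0 were higher and 3 lower (18.8% of all genes were lower by that much), and *Hnf4a* was at 0.03. Without plate 7, 5 receptors were higher (13.1%) and 4 transcription factors lower (22.2%), and the counts of the other lists were as given. All of these are single pooled values on different plates.

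Across all 1649 cells, levels as log2(CPM + 1) of the 10 genes went together, with a median Pearson correlation of 0.697 over 45 pairs, from 0.908 for *Apob* and *Ttr* to 0.181 for *Apoa2* and *Apoe*. The cells share plates and depth, and most are at 0 for both genes, so these are descriptions. In the 44 Ttr-high cells the median was 0.628, highest for *Apoa1* and *Apom* (0.873). In the 17 cells of E8.5 plate 1, all from a single plate, it was 0.421, from 0.819 for *Apoa4* and *Trf* to -0.44 for *Apoe* and *Afp*. The genes most like *Ttr* over all cells, of 22245 with a read in at least 20 cells, were *Habp2* (0.863), *S100g* (0.850), *Hnf4a* (0.847), *Pla2g12b* (0.831) and *Slc39a5* (0.830). For *Apoe* no gene exceeded the 0.580 of *Sparc*.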

How the data were processed

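The deposited table held raw read counts per gene for 1824 single cells, which the authors made from 75 bp single-end Smart-seq2 reads aligned to GRCm38 with HISAT2 2.1.0 and counted over Ensembl genes with featureCounts. The strand setting and the treatment of reads with several alignments were not given in the sources used here. Reads of 1 molecule amplified many times cannot be recognised without molecular identifiers. Wells held 0 to 6162793 reads, and 175 under 100000 reads were left out. No doublet caller was run, so joined cells remain possible.

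Counts were scaled to CPM of all gene reads of a cell. For a group, reads were summed over cells and a log2 ratio was taken with a pseudocount of 1 CPM, with all genes at 10 CPM or more in either group as background. Intervals are exact Poisson or binomial intervals at 95%. Symbols came from the GENCODE annotation for 55141 of 55487 genes. A test over animals had been planned for 3 or more named embryos with 3 or more cells of both classes, but 2 qualified, so it was not run. Plates are technical units. All 10 carriers were named, with up to 4 genes of each list by level in Ttr-high cells and the 5 genes most like *Ttr* by Pearson correlation; other genes named were chosen after their values were seen. The members and lists were chosen with earlier results of these data known. Scripts were tested on simulated data. Python 3.11.15, numpy 2.4.6, pandas 2.3.3, scipy 1.17.1 and matplotlib 3.10.9 were used. Some genes of the fixed lists enter the counts and are not reported by name here.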

Additional observations from a re-analysis of the deposited data

Results flagged for a closer look

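Over the 4 named E7.5 embryos, 11 measures were examined for an embryo far from the rest (Dixon's ratio, which chance passes in about 1 of 20 groups), and 4 passed, all in embryo 5. In its cells under the *Ttr* threshold, pooled *Afp* was 37.8 CPM, against 0, 0.0111 and 4.301 CPM in embryos 1, 2 and 4. *Trf* was 16.001 CPM against 0.629, 0.267 and 0.656, *Rbp4* was 12.1 CPM against 2.63, 2.72 and 3.12, and *Apoa4* was 1.37 CPM against 0, 0.0445 and 0.174. The 4 measures come from the same cells and are not independent. *Apob* (72.8 CPM against 0.129, 0.178 and 16.4) and *Apoa1* (11.6 CPM against 0.215, 0.289 and 2.80) were also highest in embryo 5 without passing. Embryo 5 held the 5 Foxa2/Sox17 cells with *Ttr* above 100 CPM described in the report.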

How the results depend on the processing

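No paired analysis was possible because the replicate numbers name single cells in accession order and pair none. A test within embryos with the embryo as block had been planned for 3 or more animals. With the 2 that held both classes it would have left 1 residual degree of freedom, and neither it nor its alternatives were run. The number of Ttr-high cells was 44, and 27 to 44 with 1 plate left out, the lowest without E8.5 plate 1. The median log2 ratio over other cells was 6.51 to 9.87 at E7.5 over 23 settings (7.64 to 8.37 with 1 plate left out). At E8.5 it was 7.75 to 10.38 over 20 settings, 7.75 with a pseudocount of 10 CPM, where the larger pseudocount itself lowers ratios to genes near 0 (9.37 to 10.07 with 1 plate left out). Over Foxa2/Sox17 cells it was 4.75 to 8.47 over 25 settings, 8.47 without embryo 5. The stage ratio was 0.59 without E8.5 plate 1 and 1.78 without embryo 4, and the cause was not tested. Each of the 10 genes stayed at a log2 ratio of 1 or more in all 230, 200 and 250 values of the 3 class comparisons. These counts include *Ttr*, whose values were largely set by the rule, since it made the class in all settings but that of the 10 markers. Stage values cannot change where a plate without Ttr-high cells is left out, and E8.5 plate 7 is left out under more than 1 setting. With such settings included, all but 4 of 320 stage values kept their sign. The exceptions were *Apob* at 0.61 without embryo 4, *Apoe* at -0.32 without E8.5 plate 1, and *Ttr* at -0.30 without that plate and at -0.08 with its threshold at 3000 CPM. Settings without E8.5 plate 7, with *Cer1* under 1000 CPM and without Foxa2/Sox17 cells rich in parietal markers were chosen after seeing the data. Plates, not animals, set the precision, and depth per cell limits genes near 0.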
